A study of Mus musculus with 12 samples.

Results

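The genes followed here, 10 in number, serve glucose use and the response to low oxygen, and were measured through the spleens of mice given lipopolysaccharide (LPS), the outer membrane component of gram-negative bacteria: Hk2, Pfkfb3, Pfkp, Slc2a1, Ldha, Pgk1, Adm, Ndrg1, Vegfa and Hif1a. They were taken by their gene symbols in the platform's annotation, which names them on 24 probe sets, and they are 10 of the 12393 genes that the arrays measured. All 10 were tested, and no filter on low values was applied. The mice were DUSP1-/- (called knockout here) or DUSP1+/+ (wild-type). The product of Dusp1 removes phosphate from MAP kinases and so turns them off, and the series asks how it controls the response to LPS. Knockout mice injected into the peritoneum with 10 µg of E. coli LPS per g of body weight, with the spleen taken 6 h later, form the knockout LPS group, and untreated knockout mice the knockout control group. Wild-type mice under the same treatments form the wild-type LPS and wild-type control groups. Each of the 4 groups had 3 mice, with 1 array of total spleen RNA per mouse, and the labels give no strain, age or sex and no vehicle injection for the controls.

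Glycolysis breaks glucose down to pyruvate in the cytosol, and lactate dehydrogenase turns that pyruvate into lactate. Hif1a encodes the oxygen-regulated subunit of hypoxia-inducible factor 1, a transcription factor that prolyl hydroxylases mark for degradation when oxygen is present and that raises the transcription of glucose transporters, glycolytic enzymes and secreted factors when it accumulates. In macrophages and dendritic cells LPS is known to raise both glycolysis and Hif1a transcription without a fall in oxygen.

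Hypoxia-inducible factor binds DNA at the core letters ACGTG or GCGTG, so both were searched for on both strands in RefSeq promoter windows on GRCm38.p6, which run from 250 bases before to 50 bases after a start site. Windows were found for 9 of the 10 genes, and ACGTG lay in a window of 7 of these 9 genes, against 19.6% of all 32851 windows. GCGTG lay in a window of 6 of the 9 genes, against 32.4% of all windows, and either core in a window of all 9, against 43.8%. A gene with several windows has more chances of a match. By window, 8 of 12 held ACGTG, 7 of 12 held GCGTG and 11 of 12 held either core. Vegfa entered these counts only through a second window inside the gene, and Pfkfb3 held GCGTG only in its second window. The 10 genes were chosen for glucose use and the response to low oxygen, so these shares describe them and are not a test. An NF-kB consensus, GGGA and TTCC parted by any 2 bases, which can share letters with a core only at its ends, was in 1 of the 9 genes, Pgk1, against 1.47% of all windows. The 250 bases before the most upstream listed start site follow, on the gene's strand, for 3 genes with large LPS differences and the 3 that were called in neither genotype. Capitals mark ACGTG or GCGTG or the reverse complement of either. Hk2 lies at chr6:82774455-82774704 (minus strand), Pfkfb3 at chr2:11553930-11554179 (minus), Ldha at chr7:46845554-46845803 (plus), Pgk1 at chrX:106186850-106187099 (plus), Adm at chr7:110627407-110627656 (plus) and Vegfa at chr17:46032378-46032627 (minus).
Hk2: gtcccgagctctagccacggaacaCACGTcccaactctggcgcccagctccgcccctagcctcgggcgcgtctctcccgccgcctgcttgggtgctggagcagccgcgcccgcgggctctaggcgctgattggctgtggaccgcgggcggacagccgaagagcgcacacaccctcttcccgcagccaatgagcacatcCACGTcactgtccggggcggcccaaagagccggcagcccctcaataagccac
Pfkfb3: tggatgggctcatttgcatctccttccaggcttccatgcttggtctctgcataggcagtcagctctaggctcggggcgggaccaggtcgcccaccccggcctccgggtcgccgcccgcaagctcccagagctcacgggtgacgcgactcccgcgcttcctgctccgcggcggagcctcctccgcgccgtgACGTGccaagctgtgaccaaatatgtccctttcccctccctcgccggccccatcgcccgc
Ldha: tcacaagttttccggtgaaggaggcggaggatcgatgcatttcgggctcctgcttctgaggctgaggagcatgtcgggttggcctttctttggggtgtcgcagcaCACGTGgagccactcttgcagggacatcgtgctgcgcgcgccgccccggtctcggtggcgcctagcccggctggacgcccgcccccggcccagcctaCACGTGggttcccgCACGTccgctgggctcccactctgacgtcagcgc
Pgk1: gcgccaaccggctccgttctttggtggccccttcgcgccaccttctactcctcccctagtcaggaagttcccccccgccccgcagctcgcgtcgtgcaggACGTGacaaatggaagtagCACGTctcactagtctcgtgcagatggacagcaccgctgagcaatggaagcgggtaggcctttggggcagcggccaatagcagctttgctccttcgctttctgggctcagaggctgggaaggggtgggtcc
Adm: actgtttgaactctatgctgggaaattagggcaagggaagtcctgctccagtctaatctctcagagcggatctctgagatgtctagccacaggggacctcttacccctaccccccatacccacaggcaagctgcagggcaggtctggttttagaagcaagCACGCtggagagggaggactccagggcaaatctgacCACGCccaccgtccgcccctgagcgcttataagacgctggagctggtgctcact
Vegfa: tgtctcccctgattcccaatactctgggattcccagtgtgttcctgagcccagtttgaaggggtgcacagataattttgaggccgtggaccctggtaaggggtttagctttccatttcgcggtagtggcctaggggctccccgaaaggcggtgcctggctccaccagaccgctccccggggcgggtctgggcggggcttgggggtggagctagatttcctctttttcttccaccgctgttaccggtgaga
Hk2, Pfkfb3 and Adm were among the genes with the largest LPS differences below, Ldha had a small one, and Pgk1 and Vegfa did not pass the test. The Vegfa stretch holds neither core, and that gene counts among the 9 through a second window further downstream, while the other 5 stretches hold at least 1 core each. The Ldha stretch holds the palindrome CACGTG at 2 sites, and Adm holds GCGTG alone. A match of letters describes the sequence and not binding.

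The array values are intensities, on a linear scale, and differences are given as log2 of LPS over control or of knockout over wild-type with limma's standard error (SE, 3 mice a group). Adjusted p-values come from limma's moderated test with Benjamini-Hochberg adjustment over all 22626 probe sets, and a gene is said to have risen or fallen where this value was under 0.05. A gene is represented by its brightest probe set that names it alone. Array medians ran from 47 to 63. Within a group, arrays correlated at 0.965 to 0.989 (knockout LPS), 0.909 to 0.950 (knockout control), 0.963 to 0.986 (wild-type LPS) and 0.938 to 0.961 (wild-type control) over all probe sets. The Dusp1 probe set read 2948 to 4996 in knockout LPS, 677 to 1528 in knockout control, 2116 to 2248 in wild-type LPS and 479 to 1354 in wild-type control arrays. It was not lower in knockout arrays, and since its place relative to the deleted part of the gene is not known here, it does not check the genotype labels. Several arrays had high levels of transcripts known from neighbouring organs or from red cell precursors. Summed pancreas markers stood at 24546 in knockout control 1, 3412 in knockout control 3 and 48559 in wild-type control 1, against 122 to 567 elsewhere. Summed lung markers stood at 2148 and 1261 in knockout LPS 1 and 3 and at 2513 and 2563 in knockout control 2 and 3, against 134 to 418 elsewhere. Summed erythroid markers stood at 26459 in knockout control 1, against 1080 to 13143 elsewhere. Liver markers summed to 13792 in knockout control 2, against 188 to 6091 elsewhere. Wild-type control 2 and 3 had the pattern of male tissue. Xist read 35 and 47 there, against 1101 to 3949 elsewhere, and Eif2s3y 316 and 53, against 7 to 10 elsewhere. Sex therefore differs between the wild-type LPS and control arrays and between the knockout and wild-type control arrays. It also enters the difference between the genotypes' LPS responses.

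With LPS, 7 of the 10 genes rose in knockout spleens (Hk2, Pfkfb3, Pfkp, Slc2a1, Adm, Ndrg1 and Hif1a) and none fell, while 5.54% of all genes rose and 9.71% fell. In wild-type spleens 4 rose (Hk2, Pfkfb3, Pfkp and Adm) and none fell, while 3.93% of all genes rose and 4.16% fell. Averaged over both genotypes 7 rose, with Ldha in place of Slc2a1, and none fell, while 8.52% of all genes rose and 14.3% fell. The median log2 difference of the 10 was 1.83 in knockout and 0.99 in wild-type, where the median of all genes was -0.06 and -0.03. These 10 were chosen with earlier results of these data known. Without regard to the test, all LPS arrays lay above all control arrays for 8 of the 10 genes in knockout, as for 11.3% of all genes, and for 8 of the 10 in wild-type, as for 10.2% of all genes. Centring the arrays on their medians moved the median of all genes up by 0.22 in knockout and by 0.12 in wild-type, and turned the share of higher calls among called probe sets to 60.7%, against 40.4%, in knockout and to 62.8%, against 51.4%, in wild-type. With it the counts of genes that rose were 8 in knockout and 6 in wild-type. The knockout count was 4 when only the 2 knockout groups entered the fit (Hk2, Adm, Ndrg1 and Hif1a), and 3 without the 4 arrays with high lung markers, which leaves 1 knockout array for each treatment (Pfkfb3, Slc2a1 and Ndrg1). Leaving out the 3 arrays with high pancreas markers leaves 1 knockout control, so no count is given for it. The wild-type count was 2 (Hk2 and Adm) without wild-type LPS 2, without wild-type LPS 3 or without wild-type control 2. It was also 2 (Hk2 and Adm) without both wild-type control 2 and 3, which leaves 1 wild-type control.

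**Figure D1:**
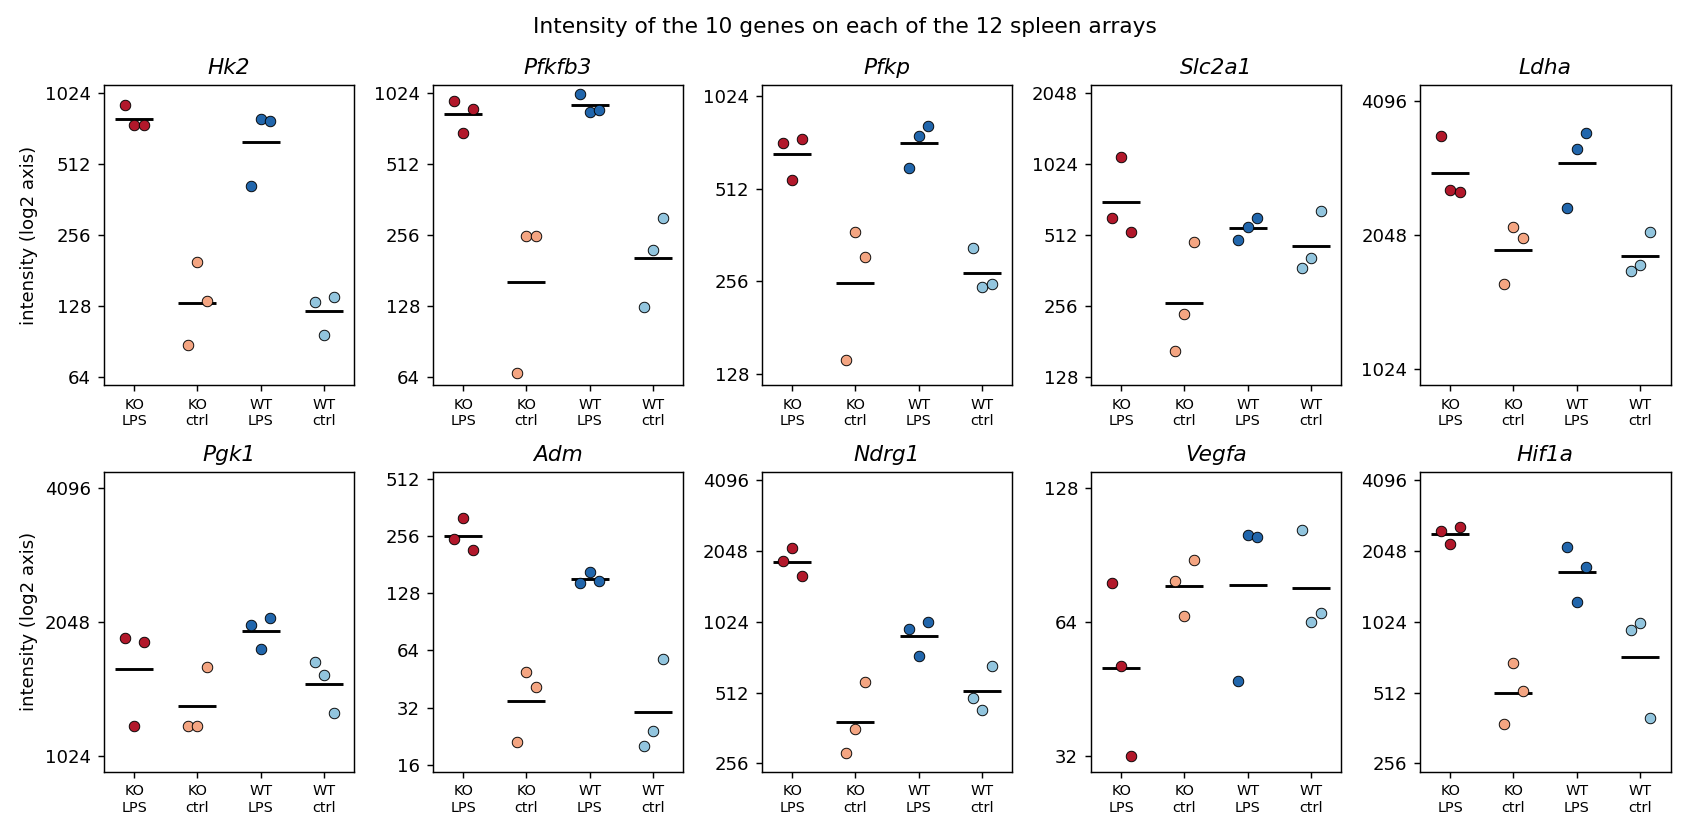
Intensity of the 10 genes (representative probe set) on each of the 12 arrays, on log2 axes, in knockout LPS, knockout control, wild-type LPS and wild-type control mice from left to right; each point is 1 mouse and the bar is the mean of log2 values. The knockout LPS arrays of Ndrg1 lie at 1602 to 2098, above the wild-type LPS arrays at 732 to 1021.

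Among the genes that bring glucose in and commit it to glycolysis, Hk2, which encodes the hexokinase that phosphorylates glucose at the mitochondrial surface (chr6:82725025-82774454), had the largest LPS difference of the glycolytic genes. It read 913, 750 and 750 in the knockout LPS arrays, against 87, 197 and 134 in the knockout controls. Wild-type spleens gave 415, 794 and 785 after LPS, against 133, 96 and 139 in the controls. The groups did not overlap in either genotype, and the wild-type LPS group held 1 array well below its other 2. The log2 difference was 2.60 ± 0.33 in knockout (6.07-fold, adjusted p = 0.000757) and 2.40 ± 0.33 in wild-type (5.26-fold, adjusted p = 0.00198). The difference between the genotypes' responses was 0.21 log2 with a 95% interval of -0.82 to 1.23.

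Pfkfb3 makes fructose 2,6-bisphosphate, the activator of phosphofructokinase (chr2:11471430-11554071). It read 950, 693 and 880 in the knockout LPS arrays, against 66, 253 and 254 in the knockout controls, and 1014, 857 and 872 in the wild-type LPS arrays, against 127, 222 and 303 in the wild-type controls. LPS and control arrays were separate in both genotypes, with 1 knockout control far below its group. The rise was 2.36 ± 0.48 log2 in knockout (adjusted p = 0.00936) and 2.16 ± 0.48 in wild-type (adjusted p = 0.0235), and its other probe set gave 2.27 and 2.22. Of the 26 alternative settings, 7 ended the call in wild-type, among them leaving out any 1 of the wild-type LPS arrays, wild-type control 1 or wild-type control 2, with 1.81 to 2.22 log2 and an adjusted p of 0.0582 to 0.0884. In knockout it ended when only the 2 knockout groups entered the fit (adjusted p = 0.0565).

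Pfkp, the platelet-type phosphofructokinase subunit that catalyses the committed step (chr13:6579874-6649060), read 723, 545 and 740 in the knockout LPS arrays, against 142, 369 and 307 in the knockout controls. In wild-type it read 597, 760 and 818 after LPS, against 328, 245 and 251 in the controls. No LPS array fell to the level of a control of its genotype, and the responses nearly coincided at 1.39 ± 0.32 log2 in knockout (adjusted p = 0.0167) and 1.40 ± 0.32 in wild-type (adjusted p = 0.0262). The difference between these responses was -0.01 ± 0.45 log2. Its other probe set gave 1.68 in knockout (adjusted p = 0.0703) and 2.17 in wild-type (adjusted p = 0.0392). In knockout the call ended without array LPS 1 (adjusted p = 0.0683), without array LPS 3 (0.0648) and without the 3 pancreas-rich arrays (0.85 log2, adjusted p = 0.0698). In wild-type it ended without arrays LPS 2 or 3 or control 2 or 3, at 1.31 to 1.36 log2 and adjusted p-values of 0.0692 to 0.118.

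Slc2a1, the basal glucose transporter GLUT1 (chr4:119108745-119137330), read 604, 1094 and 528 in the knockout LPS arrays, against 164, 236 and 477 in the knockout controls. In wild-type it read 489, 553 and 604 after LPS, against 371, 410 and 646 in the controls. The knockout groups were separate by a narrow gap and the wild-type groups overlapped. Its rise was 1.41 ± 0.39 log2 in knockout (adjusted p = 0.0389), and the wild-type difference was 0.24 ± 0.39 (adjusted p = 0.841). The responses differed by 1.17 ± 0.56 log2, which did not pass the test (adjusted p = 0.944). The knockout call is the least firm of the 7: it held in 11 of 26 alternatives and was lost without any 1 of the knockout LPS arrays, knockout control 1 or 2, any 1 of the wild-type LPS arrays or wild-type control 2 (adjusted p = 0.0519 to 0.123). The other 2 probe sets of the gene gave 1.28 and 1.01 with adjusted p = 0.0651 and 0.225. The averaged difference of 0.83 ± 0.28 log2 was not called (adjusted p = 0.0603), but was without knockout control 3 (1.04, adjusted p = 0.0130) or wild-type control 3 (0.95, adjusted p = 0.0440). Knockout control 1, which had the highest summed erythroid markers, had the lowest Slc2a1 value of all 12 arrays.

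The enzymes further down the pathway moved less. Ldha, the lactate dehydrogenase subunit that favours lactate (chr7:46842274-46855627), read 3425, 2585 and 2557 in the knockout LPS arrays, against 1590, 2132 and 2013 in the knockout controls. In wild-type it read 2353, 3202 and 3465 after LPS, against 1700, 1755 and 2078 in the controls. The groups were separate in both genotypes but the steps were small, 0.58 ± 0.20 log2 in knockout (adjusted p = 0.0965) and 0.69 ± 0.20 in wild-type (adjusted p = 0.0746). Averaged over both genotypes Ldha rose by 0.63 ± 0.14 log2, or 1.55-fold (adjusted p = 0.0105). That call was lost without the pancreas-rich arrays (0.52, adjusted p = 0.0846) and without the lung-rich arrays (0.70, adjusted p = 0.0903), and without wild-type LPS 1 the wild-type difference was called (0.86, adjusted p = 0.0370).

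Pgk1, which makes the first ATP of the pathway (chrX:106187100-106203699), read 1882, 1192 and 1848 in the knockout LPS arrays, against 1193, 1193 and 1620 in the knockout controls. In wild-type it read 2011, 1775 and 2092 after LPS, against 1659, 1554 and 1274 in the controls. One knockout LPS array matched the controls, and the wild-type groups were separate. The differences were 0.28 log2 in knockout (95% interval -0.19 to 0.76, adjusted p = 0.488) and 0.40 in wild-type (-0.08 to 0.87, adjusted p = 0.378), and both intervals span 0. Without knockout LPS 2 the averaged difference was 0.45 log2 and was called (adjusted p = 0.0457). Its 2 other probe sets gave 0.06 to 0.30.

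**Figure D2:**
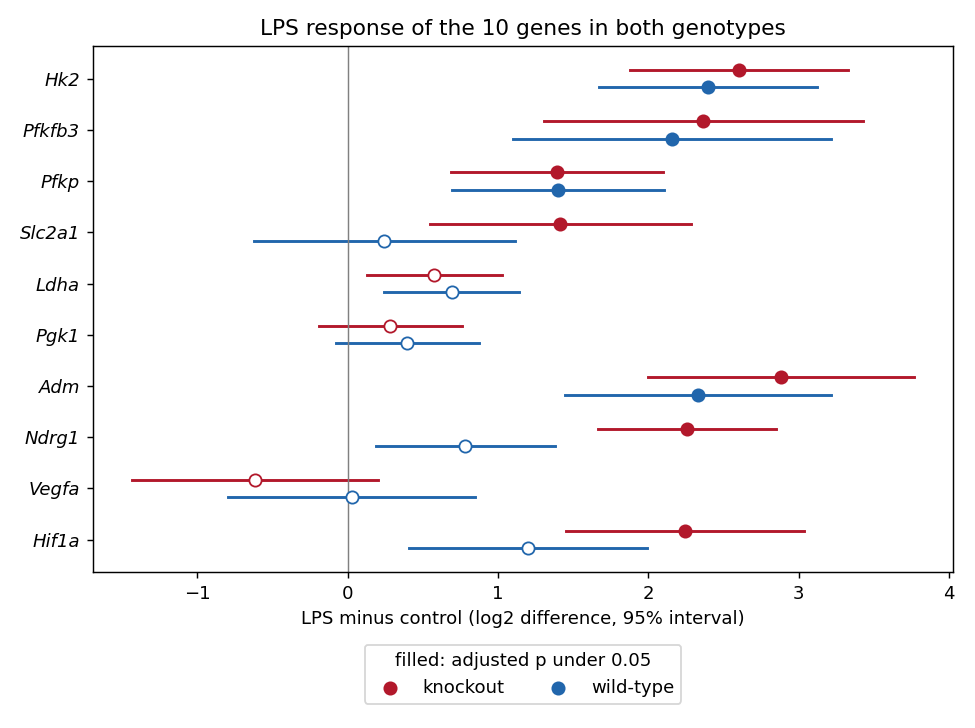
Log2 difference of LPS over control for the 10 genes, with 95% intervals, in knockout (upper point of each pair) and wild-type mice; filled points had an adjusted p under 0.05. Hk2, Pfkfb3, Pfkp and Adm are filled in both genotypes, at 1.39 to 2.88 log2, and Vegfa in neither, at -0.62 and 0.03 log2.

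Adm encodes adrenomedullin, a secreted peptide that widens vessels and tightens the endothelial barrier (chr7:110627657-110629820), and its averaged LPS difference of 2.61 ± 0.28 log2 was, with that of Hk2 at 2.50 ± 0.23, at the top of the 10 genes. The order of these 2 genes depended on the handling of low values: with 16 added to each intensity they were 2.12 for Adm and 2.35 for Hk2. It read 246, 317 and 216 in the knockout LPS arrays, against 21, 49 and 41 in the knockout controls, and 144, 165 and 149 in the wild-type LPS arrays, against 20, 24 and 58 in the wild-type controls. Every LPS array was above every control array, and the knockout LPS arrays were above the wild-type LPS arrays. The rise was 2.88 ± 0.40 log2 in knockout (7.36-fold, adjusted p = 0.00128) and 2.33 ± 0.40 in wild-type (5.03-fold, adjusted p = 0.00685). The control values lie near the bottom of the scale. In knockout the call ended without the lung-rich arrays (3.92 log2, adjusted p = 0.0555), and the wild-type call held in all 26 alternatives.

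Ndrg1, a cytoplasmic protein that hypoxia and differentiation induce in many cell types (chr15:66929318-66969641), separated the genotypes most among the 10. It read 1848, 2098 and 1602 in the knockout LPS arrays, against 282, 357 and 566 in the knockout controls. In wild-type it read 949, 732 and 1021 after LPS, against 487, 431 and 666 in the controls. LPS arrays lay above controls in both genotypes, and the lowest knockout LPS array lay above the highest wild-type LPS array. The rise was 2.26 ± 0.27 log2 in knockout (4.78-fold, adjusted p = 0.000545), and the wild-type difference was 0.78 ± 0.27 (1.72-fold, adjusted p = 0.126). All 5 Ndrg1 probe sets were called in knockout, at 2.10 to 3.09 log2, and none in wild-type, at 0.72 to 1.41. The 5 sets read the same RNA samples and are not 5 independent measurements. The knockout call held in all 26 alternatives.

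Vegfa, the main growth factor of vessel endothelium (chr17:46016993-46032377), was the exception among the secreted factors. It read 78, 51 and 32 in the knockout LPS arrays, against 79, 66 and 88 in the knockout controls, and 47, 100 and 99 in the wild-type LPS arrays, against 103, 64 and 67 in the wild-type controls. The groups overlapped in both genotypes, and no array read above 103. The differences were -0.62 log2 in knockout (95% interval -1.44 to 0.20, adjusted p = 0.351) and 0.03 in wild-type (-0.79 to 0.84, adjusted p = 0.997). A second probe set gave 0.16 and 0.77, so its 2 probe sets disagree in sign in knockout.

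Hif1a itself (chr12:73901324-73947554) read 2482, 2192 and 2595 in the knockout LPS arrays, against 375, 683 and 521 in the knockout controls. In wild-type it read 2136, 1240 and 1742 after LPS, against 943, 1009 and 400 in the controls. The groups were separate in both genotypes, with 1 wild-type control well below the other 2. The rise was 2.24 ± 0.36 log2 in knockout (4.73-fold, adjusted p = 0.00271), and the wild-type difference was 1.20 ± 0.36 (2.30-fold, adjusted p = 0.0779). Another 2 of its 4 probe sets were called in both genotypes, at 2.48 and 3.20 log2 in knockout and 1.46 and 2.56 in wild-type. With its probe sets averaged, or with arrays centred on their medians, the wild-type difference was called too (adjusted p = 0.0291 and 0.0433). The fourth stayed between 12 and 32 on all 12 arrays, at the bottom of the scale. These are transcript levels, and the hypoxia-inducible factor protein was not measured.

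After LPS, no gene of the 10 passed the test between knockout and wild-type, where 0.363% of all 12393 genes did. For 3 of them, Ndrg1, Adm and Hif1a, all knockout LPS arrays lay above all wild-type LPS arrays, as they did for 8.73% of all genes. Ndrg1 was 2.06-fold higher in knockout, a log2 difference of 1.04 ± 0.27 (95% interval 0.45 to 1.64, adjusted p = 0.191), and its 5 probe sets gave 0.94 to 1.19 with adjusted p-values of 0.191 to 0.554. Adm differed by 0.75 ± 0.40 log2 (adjusted p = 0.689) and Hif1a by 0.54 ± 0.36 (adjusted p = 0.801). The differences for the other 7 ran from -0.62 for Vegfa to 0.37 for Slc2a1. In untreated mice, where no gene on the array was called (0%), the knockout minus wild-type differences of the 10 ran from -0.80 for Slc2a1 to 0.20 for Adm, each with an adjusted p of 1.

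The difference between the LPS responses of knockout and wild-type was likewise called for no gene on the array (0%). An unadjusted p under 0.05 in limma's test, which is not a call, was found for 800 of all 12393 genes. Some genes reach such a value without any difference. Of the 10 genes Ndrg1 alone was among the 800, with a difference of 1.48 ± 0.38 log2 (95% interval 0.63 to 2.32, adjusted p = 0.457). Slc2a1 at 1.17 ± 0.56 (adjusted p = 0.944) and Hif1a at 1.04 ± 0.51 (adjusted p = 0.954) came next in size. The knockout rises of Ndrg1, Slc2a1 and Hif1a that missed the threshold in wild-type are therefore not shown to differ between the genotypes.

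**Figure D3:**
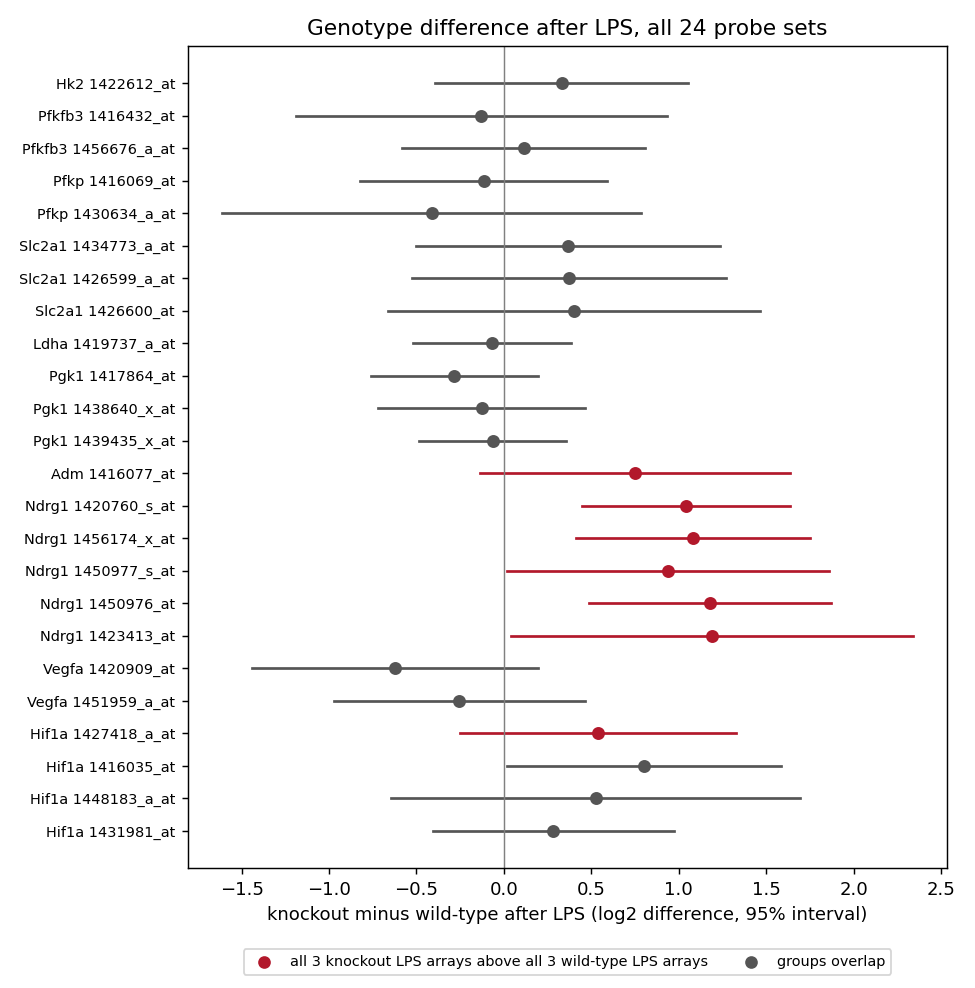
Log2 difference of knockout over wild-type after LPS for all 24 probe sets of the 10 genes, with 95% intervals; coloured points mark sets whose 3 knockout LPS arrays all lie above the 3 wild-type LPS arrays. All 5 Ndrg1 sets are coloured, at 0.94 to 1.19 log2, with Adm at 0.75 and 1 of the 4 Hif1a sets at 0.54.

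Knockout LPS 1 and 3 had high lung markers, and Ndrg1 was highest in knockout LPS 2, whose summed lung markers (172) lay within the wild-type LPS range of 143 to 264. Summed liver markers were 1086, 6091 and 4306 in the knockout LPS arrays, against 1142, 3593 and 707 in the wild-type LPS arrays. Knockout LPS 1, the lowest of its group in liver markers and within the wild-type range, read 1848 for Ndrg1, above every wild-type LPS array. No knockout LPS array was low in both lists, since array 2 had the highest liver sum and array 1 the highest lung sum, and the part of these transcripts in the Ndrg1 difference was not tested. With the 4 lung-rich arrays left out, Ndrg1 differed by 1.23 ± 0.32 log2 after LPS, as a single knockout LPS array against 3 wild-type ones (adjusted p = 0.314). The single array is assumed to vary like the other groups, and 0 probe sets were called in that comparison.

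Lymphocyte markers also moved with LPS. Summed B cell markers were 5223 to 6250 in knockout LPS, against 6010 to 14776 in knockout controls, and 5465 to 8860 in wild-type LPS, against 10974 to 14303 in wild-type controls. Summed T cell markers were 1074 to 1601 in knockout LPS, against 1198 to 3796 in knockout controls, and 932 to 1540 in wild-type LPS, against 2280 to 3244 in wild-type controls. In the averaged contrast 3 of 7 B cell and 3 of 6 T cell markers fell and none rose, while 14.3% of all genes fell and 8.52% rose. In whole spleen RNA, fewer cells of a type and less RNA per cell cannot be told apart. Knockout control 1 had B and T cell sums of 6010 and 1198, within the range of the knockout LPS arrays, and it was lowest of its group, ties included, for 9 of the 10 genes. Of 11 neutrophil markers none rose or fell, and of 11 monocyte and macrophage markers 2 rose and 5 fell. No marker was at 0, since the lowest value on any array is 6. The part of cell composition in the rises was not tested beyond these values.

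None of the other measured genes of glycolysis and lactate handling rose. Gpi1, Gapdh, Eno1 and Hk3 were listed but had no probe set naming them alone. Of 31 further genes of glycolysis and lactate handling 22 were measured. Like the 10 genes, they were chosen with earlier results of these data known, so the medians describe them and are not a test. In the averaged contrast none of the 22 rose and 4 fell. Their median was -0.14 log2, against 1.46 for the 10 genes and -0.04 for all genes. Their falls are near the 14.3% of all genes that fell in that contrast, where 8.52% rose. The 4 were Pfkm, the muscle phosphofructokinase subunit (-1.13 ± 0.33, adjusted p = 0.0337), Eno3, the muscle enolase (-0.99 ± 0.30, adjusted p = 0.0398), Slc2a3, the high-affinity transporter GLUT3 (-0.78 ± 0.18, adjusted p = 0.0127), and Pdk2, a kinase that inhibits pyruvate dehydrogenase (-0.55 ± 0.12, adjusted p = 0.00857). Pdk2 read 13 to 24 on all 12 arrays, at the bottom of the scale, so the size of its difference is uncertain. Pfkm read 59, 51 and 45 in knockout LPS, against 338, 106 and 71 in knockout controls, and 45, 72 and 63 in wild-type LPS, against 87, 132 and 104 in wild-type controls. Its knockout control 1 value, from the array rich in pancreas and erythroid markers, lay far above the rest. Pgam1 and Pkm, enzymes of the lower pathway, did not pass the test, at 0.89 and 0.55 log2.

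Among the regulators of hypoxia-inducible factor 11 of 12 listed genes were measured. In the averaged contrast 5 of the 11 rose and 1 fell, with a median of 0.49 log2, while 8.52% of all genes rose and 14.3% fell. Bhlhe40, a transcriptional repressor and hypoxia target, rose by 1.26 ± 0.25 (adjusted p = 0.00463), and Cited2, which competes with hypoxia-inducible factor for the coactivator p300, by 1.00 ± 0.24 (adjusted p = 0.0136). Epas1, the second oxygen-regulated alpha subunit, rose by 0.81 ± 0.21 (adjusted p = 0.0210). The prolyl hydroxylases that mark Hif1a moved in different directions: Egln2 rose by 1.10 ± 0.20 (adjusted p = 0.00348) and Egln3 by 0.71 ± 0.18 (adjusted p = 0.0196), while Egln1 fell by 1.08 ± 0.19 (adjusted p = 0.00292). Egln2 read 2090, 2515 and 1725 in knockout LPS, against 454, 658 and 1046 in knockout controls, and 1117, 1398 and 1271 in wild-type LPS, against 722, 765 and 1073 in wild-type controls. LPS arrays were above controls in both genotypes, and the knockout LPS arrays were above the wild-type ones, a difference of 0.73 ± 0.29 log2 that was not called (adjusted p = 0.474). Egln3 stayed between 19 and 64 on all arrays and Epas1 between 18 and 69, and the wild-type groups of Epas1 overlapped. By genotype, 4 regulators rose and 1 fell in knockout, where 5.54% of all genes rose and 9.71% fell. None was called in wild-type, where 3.93% of all genes rose and 4.16% fell.

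Of 22 other hypoxia response genes 19 were measured, and in the averaged contrast 1 rose and 4 fell, with a median of -0.45 log2, near the shares of all genes (8.52% and 14.3%). Lox, the lysyl oxidase that cross-links collagen, rose by 1.93 ± 0.21 (adjusted p = 0.000172) and read 128, 105 and 115 in knockout LPS, against 33, 57 and 23 in knockout controls, and 200, 133 and 126 in wild-type LPS, against 30, 39 and 34 in wild-type controls. The falls were P4ha1 at -1.45 ± 0.40 and P4ha2 at -0.54 ± 0.15 (collagen prolyl hydroxylase subunits), with adjusted p-values of 0.0267 and 0.0286, Bnip3 at -0.80 ± 0.16 (a mitophagy receptor, adjusted p = 0.00534) and Hmox1 at -0.71 ± 0.21 (heme oxygenase 1, adjusted p = 0.0355). The Hmox1 fall was called in wild-type (-1.29 ± 0.30 log2, adjusted p = 0.0274) and not in knockout (-0.14 ± 0.30, adjusted p = 0.843). Hmox1 read 902, 1575 and 1515 in knockout LPS, against 1721, 1144 and 1460 in knockout controls. In wild-type it read 577, 429 and 866 after LPS, against 1721, 1372 and 1319 in the controls. The difference between these responses was 1.15 ± 0.42 log2 and was not called (adjusted p = 0.797).

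The receptors of the secreted members split around Adm. All 9 listed genes were measured. In the averaged contrast 1 rose and 4 fell, with a median of -0.60 log2, while 8.52% of all genes rose and 14.3% fell. Ramp3, which makes the calcitonin receptor-like receptor respond to adrenomedullin, rose by 2.44 ± 0.34 (adjusted p = 0.000669). It read 439, 526 and 335 in knockout LPS, against 43, 63 and 78 in knockout controls, and 257, 84 and 388 in wild-type LPS, against 41, 43 and 67 in wild-type controls. All LPS arrays were above all controls, with wild-type LPS 2 close to them. Ramp2, the partner that forms the other adrenomedullin receptor, fell by 1.41 ± 0.33 (adjusted p = 0.0124), and Ramp1, which forms the receptor for calcitonin gene-related peptide, by 1.58 ± 0.32 (adjusted p = 0.00521). Of the VEGF receptors, Kdr fell by 0.81 ± 0.17 (adjusted p = 0.00569) and the co-receptor Nrp1 to 0.354 times its control level (SE 0.34 log2, adjusted p = 0.00993). Of 8 endothelial markers 1 rose (Cdh5) and 3 fell (Tek, Stab2 and Kdr itself, which is in both lists), and their summed level was 1228 to 2232 in knockout LPS, against 1700 to 3085 in knockout controls, and 1015 to 1289 in wild-type LPS, against 2104 to 2545 in wild-type controls; their part in these falls was not tested. By genotype, 2 of the 9 receptor genes rose and 1 fell in knockout, where 5.54% of all genes rose and 9.71% fell. In wild-type 1 rose and 2 fell, where 3.93% of all genes rose and 4.16% fell. Nrp1 was not called in knockout (-0.92 log2, adjusted p = 0.266). Another co-receptor, Nrp2, rose there by 1.01 ± 0.27 (adjusted p = 0.0311). No gene of the 4 lists was called between genotypes or in the difference between responses.

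**Figure D4:**
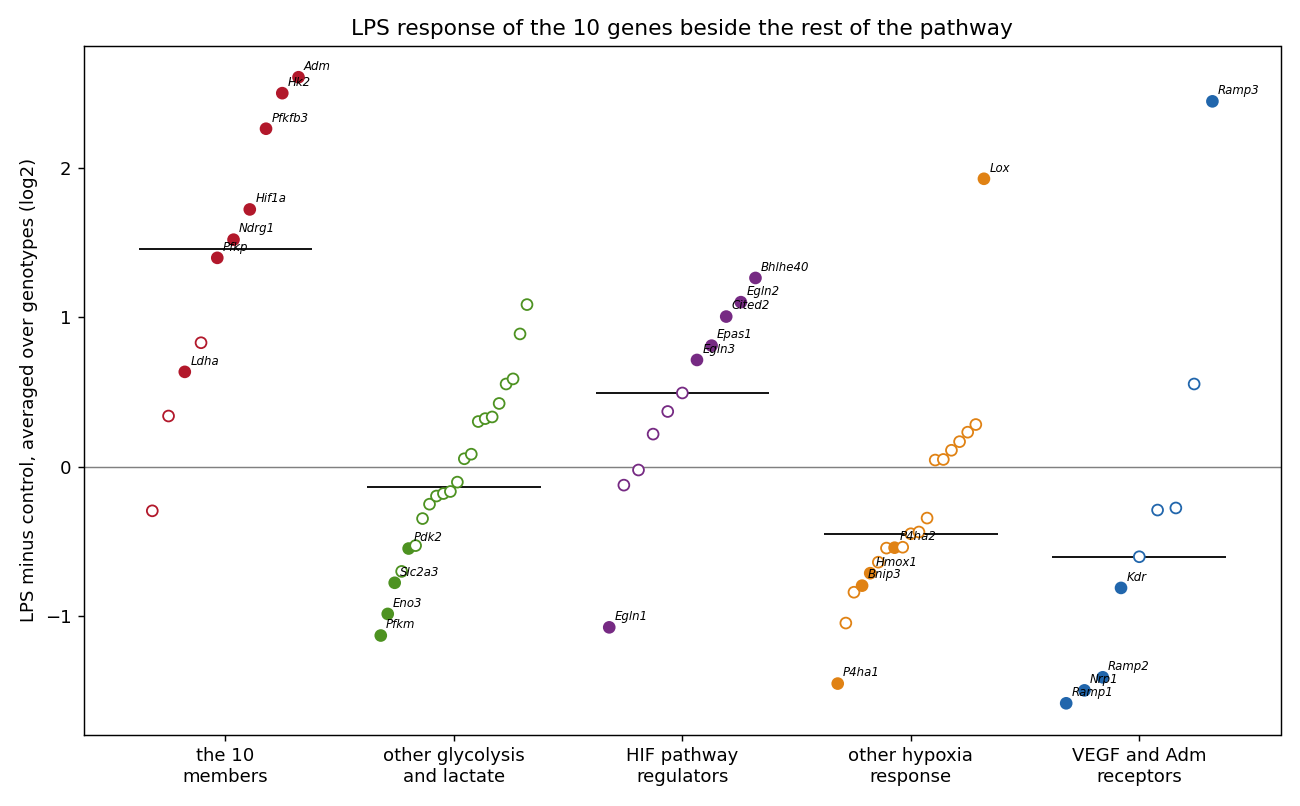
Log2 difference of LPS over control, averaged over both genotypes, for the 10 genes and for the measured genes of 4 related lists; each point is 1 gene, filled where the adjusted p was under 0.05, and the horizontal bars are list medians. The median of the 10 genes is 1.46 log2, against -0.14 for the other glycolysis and lactate genes and 0.49 for the regulators. The 10 genes and the lists were chosen with earlier results of these data known.

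Profiles over the 12 arrays were compared by the root mean square difference of log2 values centred on each gene's mean. The genes closest to Adm were Maff, a small Maf transcription factor (0.27), Daxx, a nuclear histone chaperone (0.28), and Hbegf, a heparin-binding growth factor (0.29). Those closest to Hk2 were Batf, an AP-1 family factor (0.31), St6galnac4, a sialyltransferase (0.34), and Gadd45b, a stress-response gene (0.35). Those closest to Pfkfb3 were Ccr7, the chemokine receptor that guides dendritic cells and T cells (0.29), Slfn1 (0.36) and Ifi35, an interferon-induced gene (0.38). Their averaged LPS differences ran from 2.03 log2 for Ccr7 to 2.81 for Maff. The values describe likeness on these 12 arrays, which share the LPS contrast.

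Within groups, the 10 genes varied most in the knockout controls, with a median standard deviation of 0.55 log2, against 0.36 for all genes. It was 0.24 in knockout LPS, 0.25 in wild-type LPS and 0.35 in wild-type controls, close to the medians of all genes there, 0.23, 0.25 and 0.31.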

How the data were processed

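Spleen RNA of 12 mice was hybridised to MOE430A 2.0 arrays. Per the series' design text, the authors used RMA, from the affy package in R, to make the deposited intensity values. The version is not given in the sources used here. The deposited intensities are whole numbers on a linear scale, from 6 to 15228, with 30.84% of them under 20. Array medians differ, so the deposited arrays do not share 1 distribution.

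Groups came from the sample titles. The deposited intensities were log2-transformed with no pseudocount. Of 22690 probe sets, 64 controls were left out. Platform annotation gave 1 gene for 20380 of the 22626 tested, several for 691 and none for 1555. Each gene is given by 1 probe set, the brightest on average over 12 arrays of those naming it alone, with sets ending in _x_at used only where there was no other. Per probe set, limma 3.58.1 in R 4.3.3 fitted 4 group means (lmFit, contrasts.fit, eBayes) with 8 residual degrees of freedom and 2.722 prior ones. Tests were two-sided, adjusted by Benjamini-Hochberg over 22626 probe sets in each contrast, at a threshold of 0.05. The fit was also run on simulated arrays with known changes in the knockout LPS group. Their noise was independent and had the same spread in all groups, so unequal spreads and marker-rich arrays were not covered. The number of arrays and the signal over background limit precision.

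The 10 genes and the lists were chosen with earlier results of these data known. Of each pathway list, the 4 largest called rises and falls in the averaged contrast are named, plus genes called between genotypes. Egln3, the fifth called regulator, Nrp2, the uncalled Pgam1 and Pkm, and the called endothelial markers were chosen after their values were seen. For the 3 genes with the largest averaged LPS change, the 3 most similar profiles are named. Same-numbered arrays of different groups were not treated as pairs: their deviations correlated above 0.1 in 6 of 18 pairs. The highest correlation was 0.63, between knockout LPS 2 and wild-type LPS 2. The lowest was -0.58, between knockout LPS 3 and wild-type control 3. Alternatives covered scaling, low values, the fit, the probe set rule and arrays left out. Gene positions and promoters come from RefSeq on GRCm38.p6.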

Additional observations from a re-analysis of the deposited data

How the results depend on the processing

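Of 26 alternatives, 12 left out 1 array each and 14 changed another choice. Leaving out the arrays with high lung transcripts was chosen after seeing the data. Over 1540 values of the 10 genes, no called difference changed sign, 39 lost their call and 14 gained one, and 61 differences that were never called changed sign. The causes of these changes were not tested.

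The count of the 10 genes called in knockout with LPS was 7. It was 5 to 7 with 1 array left out, 4 with only the groups of the contrast and 3 without the lung-rich arrays, where fewer samples enter the fit. The count in wild-type was 4. It was 2 to 4 with 1 array left out, 2 with a floor of 20, and 2 without both arrays with the pattern of male tissue (low Xist and high Eif2s3y), wild-type control 2 and 3. The averaged count of 7 became 7 to 8 with 1 array left out and 6 to 8 otherwise. Between the genotypes after LPS, where 0 genes were called, array quality weights called 1, Ndrg1 at 1.03 log2 (adjusted p = 0.00973). Over its other alternatives this difference ran from 0.90 to 1.23 log2 with adjusted p-values of 0.0813 to 0.641. The controls and the difference between responses gave 0 calls among the 10 under every alternative run.

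A fit with the replicate number as a block gave 7, 4 and 7 called genes in the knockout, wild-type and averaged LPS contrasts and 0 in the others, and 19 called probe sets between the genotypes after LPS, against 72. In 11 of 36 comparisons an array correlated best with its own number in another group, so the numbers are not treated as pairs.

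Counts over all probe sets moved more. In knockout with LPS, 2869 were called, against 1558 with only the groups of the contrast, 1900 with the mean of a gene's probe sets (fewer features tested), 403 without the lung-rich arrays, 1485 without knockout LPS 1 and 1713 without knockout LPS 3. In wild-type, 1491 were called, against 2912 with array quality weights, 740 without both arrays with the pattern of male tissue, and 565 to 937 without wild-type LPS 2 or 3 or wild-type control 1 or 2. Averaged, 4480 were called, against 2851 with the mean of probe sets and 1948 without the lung-rich arrays. Between the genotypes after LPS, 72 were called, against 43 without dim probe sets (under the 40th percentile), 46 with eBayes trend and robust, 2063 with array quality weights, 0 with only the groups of the contrast, 37 without the male-pattern arrays, 130 without the pancreas-rich arrays and 0 without the lung-rich arrays. It was 4 to 45 without any 1 LPS array, knockout control 3 or wild-type control 2. In controls and in the difference between responses 0 were called, and at most 1 under the alternatives apart from those that follow. Without the pancreas-rich arrays 1 knockout control is left, and without the male-pattern arrays 1 wild-type control. More were called there, but the comparisons rest on a single control array of a genotype, and those counts are not given. Values near the lowest intensity of 6 limit what can be read from dim probe sets such as those of Vegfa, Egln3 and the control arrays of Adm.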
